A study of Rattus norvegicus with 24 samples.

Results

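Neutrophil granule and defensin genes were followed in 6 tissues of ageing rats. The genes were 10 named genes: the defensins Np4, RatNP-3b and Defa5, the azurophil granule enzyme Mpo, the granule proteins Mmp8, Pglyrp1 and Camp, the cytosolic proteins S100a8 and S100a9, and Lta4h of leukotriene synthesis. A gene was measured where a probe set of the array, a group of short probes against a single transcript, carried its symbol and no other in the array annotation. This held for 8 of the 10, with 1 probe set each, out of 15923 probe sets in all. Mpo and Camp had none and have no value here.

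The study compared gene expression with age between tissues of male Sprague-Dawley rats. Bone and spleen lymphocyte were taken at 4, 10, 18 and 24 months, as were hypothalamus, pituitary, liver and kidney, which serve here as the 4 other tissues. RNA of 10 rats was pooled for each tissue and age and hybridised to 1 array, which gives 24 arrays, and all tissues of 1 age were taken from a single set of untreated rats. So each value is that of a pool, and no spread between rats can be had. The values are MAS5 signals, the brightness of a probe set scaled to a common mean per array, on a linear scale with no unit. A signal of 100 or more is taken here as measured, a minimum that stands in for the detection calls of the study.

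Neutrophils are short-lived white blood cells that are made in the bone marrow and carry their weapons in granules filled during maturation. Azurophil granules form first, at the promyelocyte stage, and hold myeloperoxidase and, in rats and humans, alpha-defensins, small cationic peptides that damage microbial membranes. Specific and gelatinase granules form later and hold collagenase (Mmp8), the peptidoglycan-binding protein Pglyrp1 and cathelicidin (Camp). Granule mRNA is made mainly by immature cells in the marrow, while S100a8 and S100a9, the calcium-binding subunits of calprotectin, fill the cytosol of mature neutrophils and are also made by monocytes.

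The upstream sequences of the members are shown because defensin genes that lie close together in the genome gave like levels across the tissues. The RefSeq promoter table used here listed 6 of the 10 genes, and Defa5, S100a8, Mpo and Camp were not looked for elsewhere. In the rat assembly GRCr8, Np4, RatNP-3b and Defa5 lie on chromosome 16, with 1 protein-coding gene between Np4 and RatNP-3b, 5 between Np4 and Defa5 and 7 between RatNP-3b and Defa5. S100a8 and S100a9 are direct neighbours on chromosome 2. The stretches below end before the annotated gene and read 5′ to 3′ on the strand of the gene. Capitals mark matches to motifs named after C/EBP, RUNX, the CCAAT box and the TATA box. Np4 is shown at chr16:77199714-77199874 (minus strand), RatNP-3b at chr16:77249047-77249227 (minus), Mmp8 at chr8:13008730-13008872 (plus) and S100a9 at chr2:178490623-178490782 (minus).
Np4: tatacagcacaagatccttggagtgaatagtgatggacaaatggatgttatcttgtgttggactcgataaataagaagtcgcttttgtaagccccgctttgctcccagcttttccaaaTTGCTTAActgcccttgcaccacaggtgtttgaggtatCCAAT
RatNP-3b: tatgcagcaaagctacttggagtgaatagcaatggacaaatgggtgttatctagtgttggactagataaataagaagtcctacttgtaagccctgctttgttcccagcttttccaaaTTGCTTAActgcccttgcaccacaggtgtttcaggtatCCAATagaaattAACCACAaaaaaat
Mmp8: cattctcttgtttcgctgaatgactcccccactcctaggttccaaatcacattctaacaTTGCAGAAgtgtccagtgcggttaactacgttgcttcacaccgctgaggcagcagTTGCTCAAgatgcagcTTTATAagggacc
S100a9: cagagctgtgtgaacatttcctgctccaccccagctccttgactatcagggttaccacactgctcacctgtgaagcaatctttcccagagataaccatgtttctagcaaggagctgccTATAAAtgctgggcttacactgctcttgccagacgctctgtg

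Over the 250 bases before the start, Np4 and RatNP-3b aligned in 234 columns, of which 214 were identical and 4 were gaps (91.5% identity). Both held TTGCTTAA, a match to the C/EBP motif TTGCNNAA, 114 bases before the start in Np4 and 133 before it in RatNP-3b. C/EBP factors, among them C/EBP epsilon, are known to drive granule genes. The motif also matched in Mmp8, at 101 and 46 bases before the start, and in 9.22% of the 33469 rat promoters when the same 250 bases were searched on both strands. The RUNX motif AACCACA matched in Np4 at 64 bases, inside the stretch that is not shown, and in RatNP-3b at 83 bases, and in 4.59% of all promoters. CCAAT matched in Np4, RatNP-3b, Mmp8 and Lta4h and in 34% of all promoters. TATAAA matched in Mmp8 and S100a9 and in 12.9% of all promoters. The PU.1 motif GAGGAAGT matched in none of the 6 genes and in 2.04% of all promoters. These motifs were chosen after the sequences were seen, they do not overlap one another in the stretches shown, and a match says only that the letters are there. Since the defensin genes are near copies, their probes may share transcripts, so the 3 defensin signals may not be independent.

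The level in each tissue was set out before any comparison with age. Np4, which encodes the neutrophil peptide NP-4, had signals of 7221, 15655, 17896 and 22274 in bone at 4, 10, 18 and 24 months. In spleen lymphocyte it had 217, 759, 2214 and 718 at the same ages. On the 16 arrays of the other tissues its signal was 6.76 at the lowest, 25.2 at the median and 97.9 at the highest. The groups did not overlap: every bone array lay above every spleen lymphocyte array, and these above all 16 others. The share of all probe sets whose arrays separate in this way was not counted, here or for the genes below.

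RatNP-3b, which encodes the defensin NP-3, gave the same order. Its signals in bone were 6073, 12874, 14445 and 18996, and in spleen lymphocyte 198, 724, 3382 and 599. The 16 other arrays ran from 3.26 to 35.1, with a median of 11.4. Defa5 is listed in RefSeq with the synonyms ratNP-1 and ratNP-2, the names of rat neutrophil defensins, although the human gene of this symbol is known from Paneth cells of the gut. Its signals in bone were 9002, 17734, 19032 and 25522, and in spleen lymphocyte 76.6, 685, 4639 and 911. The 16 other arrays ran from 8.62 to 39.3, with a median of 14.9. The 4-month spleen lymphocyte array was thus the only array of these tissues on which a defensin was not measured. It lay above the 16 others for Np4 and RatNP-3b. For Defa5 its 76.6 and all 16 others lay under 100, where signals have no order.

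Mmp8, the neutrophil collagenase, and Pglyrp1, which binds bacterial cell walls, were measured in bone and in none of the spleen lymphocyte arrays. Mmp8 had signals of 747, 3424, 2642 and 3662 in bone, against 65, 72, 78.9 and 21.3 in spleen lymphocyte. Its 16 other arrays ran from 19 to 225, with a median of 76.8. The 4 bone arrays stood above all 20 others, and the spleen lymphocyte arrays lay within the range of the other tissues. Pglyrp1 had signals of 1046, 4760, 5160 and 6771 in bone, against 98.6, 16.3, 98.4 and 54.6 in spleen lymphocyte. The 16 other arrays ran from 17.4 to 141, with a median of 33. Again bone stood alone. Both genes also passed a signal of 100 on a few other arrays, Mmp8 on 5 of 16 (3 of them liver) and Pglyrp1 on 2 of 16.

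S100a8 and S100a9, whose proteins form the dimer calprotectin, were high in bone and measured in spleen lymphocyte at every age. S100a8 had signals of 8561, 14053, 16467 and 21967 in bone and of 202, 255, 805 and 587 in spleen lymphocyte, against 1.64 to 37.8 on the 16 other arrays (median 10.7). S100a9 had 15462, 24257, 27276 and 35707 in bone and 1039, 1728, 5472 and 3432 in spleen lymphocyte, against 4.15 to 154 on the others (median 53). For both, the 3 sets of arrays did not overlap. Among the other tissues, S100a9 was measured only in liver, at 132, 110, 145 and 154, where each array lay above all those of hypothalamus, pituitary and kidney, whose highest was 84.4.

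Lta4h encodes leukotriene A4 hydrolase, which makes the neutrophil attractant leukotriene B4 and is found in many cell types. Unlike the other members it was measured on all 24 arrays. Its signals in bone were 2257, 6339, 5383 and 6877, and in spleen lymphocyte 579, 1208, 1405 and 1076. Kidney followed with 612, 862, 1377 and 688, then liver with 734, 775, 762 and 858, hypothalamus with 636, 945, 685 and 774, and pituitary with 638, 461, 535 and 332. Bone did not overlap with any of these, whereas the neighbours from spleen lymphocyte to pituitary overlapped in their ranges.

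**Figure D1:**
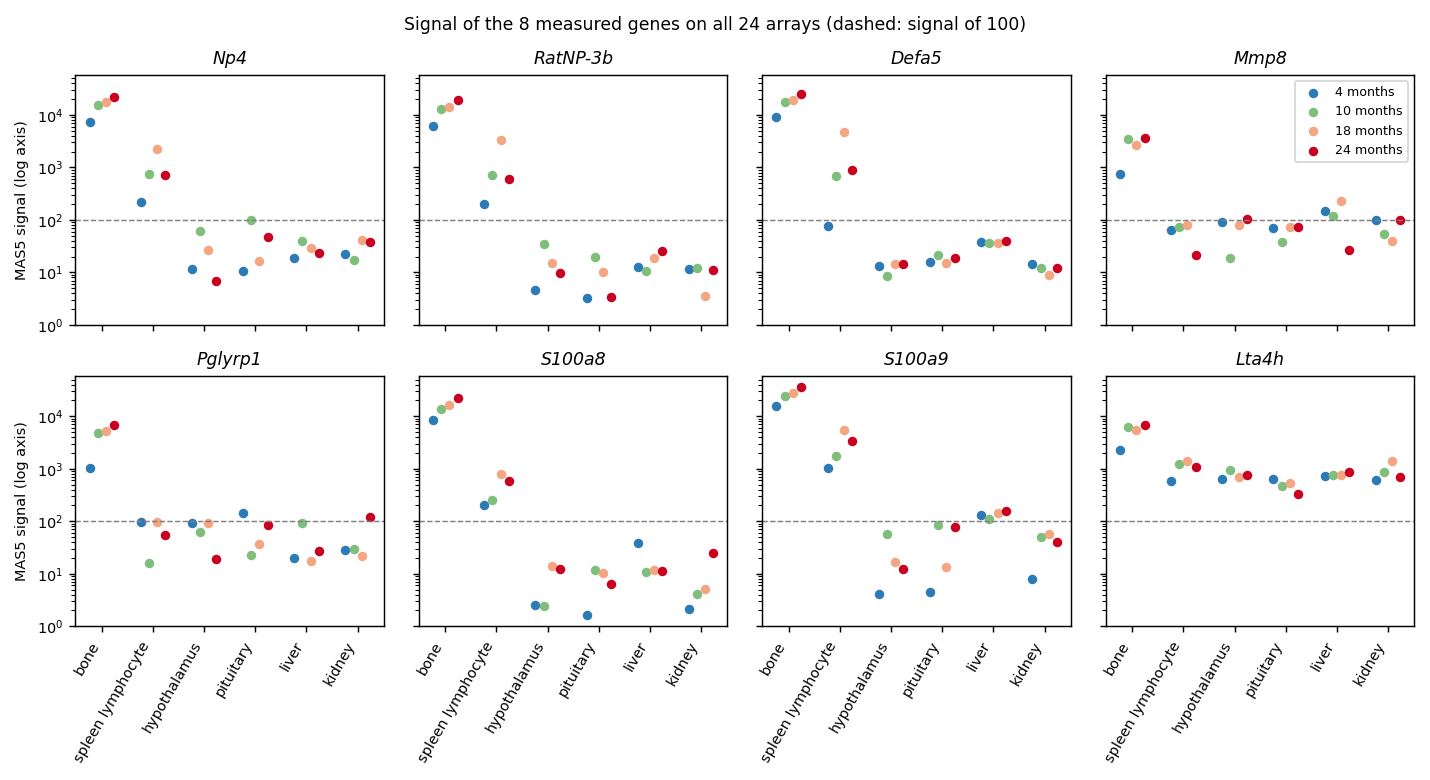
MAS5 signal (log axis) of the 8 measured genes on all 24 arrays, by tissue, with a point for each array coloured by age and a dashed line at a signal of 100. Bone lies above all other tissues for every gene, spleen lymphocyte lies between bone and the rest for the 3 defensins, S100a8 and S100a9, and Mmp8 and Pglyrp1 stand out in bone alone.

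The tissue differences were tested with limma on log2(signal + 50), with tissue and age as factors over the 24 arrays, for 15866 probe sets and with Benjamini-Hochberg adjustment. All 8 members were higher in bone than in the 4 other tissues, where 24.3% of the probe sets tested were higher at an adjusted p under 0.05. The difference was 7.95 for S100a9 (SE 0.25, limma adjusted p = 2.01e-15), 7.92 for Defa5 (SE 0.43), 7.92 for S100a8 (SE 0.21), 7.60 for RatNP-3b (SE 0.33) and 7.53 for Np4 (SE 0.29). These 5 have no set order, since their signals in the other tissues mostly lie under 100, where the pseudocount sets the size: with a pseudocount of 16 the differences were 8.69, 8.92, 9.16, 8.76 and 8.38. The granule proteins Pglyrp1 (5.21, SE 0.37) and Mmp8 (4.18, SE 0.33) and the widely measured Lta4h (2.70, SE 0.21) had smaller differences, also with a pseudocount of 16 (5.86, 4.65 and 2.75). The limma adjusted p of these 7 lay between 1.63e-16 and 1.38e-09. All are differences on the log2(signal + 50) scale, which understates the change of probe sets that are low in the other tissues.

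Spleen lymphocyte was higher than the 4 other tissues for 6 of 8 members, where 25.9% of the probe sets were higher. S100a9 differed by 4.63 (SE 0.25), RatNP-3b by 3.69 (SE 0.33), Defa5 by 3.54 (SE 0.43), Np4 by 3.30 (SE 0.29) and S100a8 by 2.92 (SE 0.21), all with a limma adjusted p of 4.45e-07 or lower. For Lta4h the difference was 0.51 (SE 0.21, limma adjusted p = 0.0497), with 1 of 4 spleen lymphocyte arrays above all 16 others, and it missed the threshold under 9 of the alternatives tried. Mmp8 (-0.25, SE 0.33, limma adjusted p = 0.559) and Pglyrp1 (0.15, SE 0.37, limma adjusted p = 0.763) did not pass.

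Between these 2 tissues, all 8 members were higher in bone than in spleen lymphocyte, against 19.7% of the probe sets. The difference was 5.06 for Pglyrp1 (SE 0.47), 5.00 for S100a8 (SE 0.27), 4.43 for Mmp8 (SE 0.42), 4.38 for Defa5 (SE 0.54), 4.22 for Np4 (SE 0.37), 3.91 for RatNP-3b (SE 0.42), 3.32 for S100a9 (SE 0.32) and 2.19 for Lta4h (SE 0.27). The limma adjusted p was 2.15e-06 or lower for each. These p-values measure the spread between arrays left after tissue and age, not the spread between rats. In RNA of a whole tissue, fewer cells of a type and less RNA per cell cannot be told apart.

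**Figure D2:**
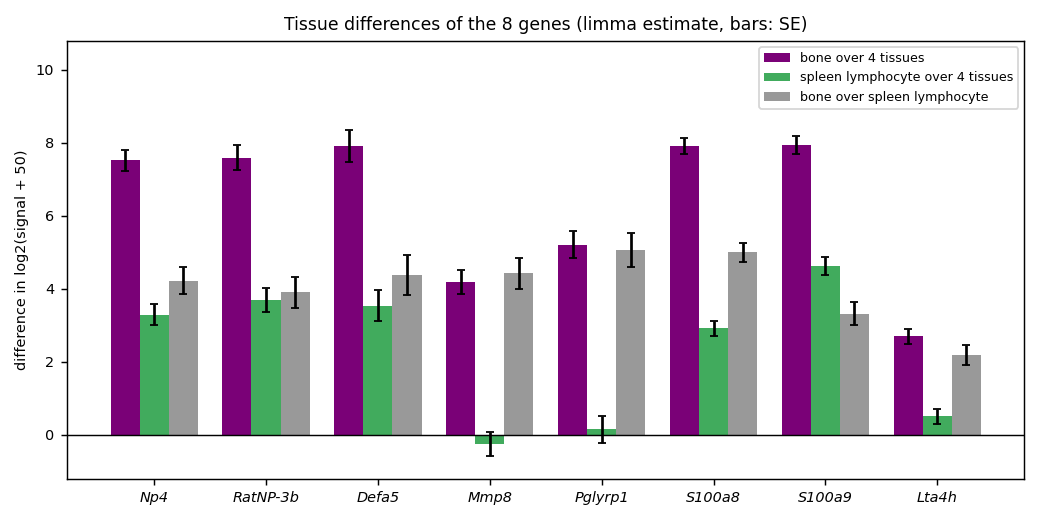
Difference in log2(signal + 50) estimated by limma over 24 arrays for each gene, with SE bars: bone over the 4 other tissues (purple), spleen lymphocyte over the 4 other tissues (green) and bone over spleen lymphocyte (grey). The bone bars reach from 2.70 for Lta4h to 7.95 for S100a9, and the green bars of Mmp8 and Pglyrp1 lie near 0.

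The labels of both tissues were set against other markers. Of 12 T cell genes on the array, 11 were higher in spleen lymphocyte than in the 4 other tissues, and of 9 osteoblast genes all 9 were higher in bone and 0 in spleen lymphocyte. Erythroid genes (6 of 6) and platelet and megakaryocyte genes (4 of 4) were also higher in bone than in the 4 other tissues. So were 9 of 9 monocyte and macrophage genes. In spleen lymphocyte, 4 of 6 erythroid, 1 of 4 platelet and megakaryocyte and 5 of 9 monocyte and macrophage genes were higher than in these tissues. The share of all probe sets that were higher was 24.3% in bone and 25.9% in spleen lymphocyte.

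Other neutrophil genes were read from lists of known members. Of 6 further granule genes on the array, 6 were higher in bone than in the 4 other tissues, where 24.3% of all probe sets were higher. In spleen lymphocyte over the same tissues 3 were higher and 2 lower. Lcn2, which encodes the iron-trapping protein lipocalin 2 of specific granules, had signals of 3214, 10179, 10067 and 14821 in bone and of 39.4, 34.2, 133 and 171 in spleen lymphocyte. Fcnb, a ficolin that binds microbial sugars, had 3291, 8805, 8188 and 11054 in bone and 461, 542, 811 and 602 in spleen lymphocyte. Both were lowest in bone at 4 months, but their spleen lymphocyte signals did not reach 2-fold between any consecutive ages at which they were measured. Slpi, a protease inhibitor, ran the other way: it had 760 to 1239 in bone and 10741 to 19678 in spleen lymphocyte. Lyz2, the lysozyme of granulocytes and macrophages, was high in both tissues, at 16768 to 32684 in bone and 12574 to 18480 in spleen lymphocyte.

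Of the NADPH oxidase, the enzyme of the oxidative burst, 4 of 4 subunit genes were higher in bone than in the 4 other tissues. So were 8 of 9 receptor and adhesion genes, 6 of 8 regulators of granulocyte formation and 5 of 8 genes of the leukotriene pathway. Of all probe sets 24.3% were higher there. In spleen lymphocyte over the same tissues, 3 oxidase, 4 receptor and adhesion and 2 leukotriene genes were higher, where 25.9% of all probe sets were. Of the regulators 3 were higher there and 1 lower. Cebpe, a regulator of the late granule genes, had signals of 236, 839, 934 and 1003 in bone. Alox5ap, which presents arachidonic acid to 5-lipoxygenase upstream of Lta4h, had 575, 1857, 1642 and 1987. Both were lowest in bone at 4 months, as the members were, but this did not hold for all genes of their lists. Among the regulators Runx1 had 676, 586, 575 and 669, and among the leukotriene genes Alox15 had 2076, 2234, 1140 and 1647.

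The genes with a pattern most like that of the members, by Pearson's r over the 24 arrays with the mean of their log2 signals, were Hemgn of blood cell precursors (0.985), Fcnb (0.981), the chemokine receptor Ccr1 (0.979), Ahsp, which binds free alpha-globin (0.978), Ybx3 (0.974), the mitotic kinesin Kif18b (0.974), the mast cell protease Mcpt9 (0.973), the carbonic anhydrase Car1 (0.973), the erythroid factor Nfe2 (0.972) and the mitotic ubiquitin enzyme Ube2c (0.970). Genes of red cell precursors and of dividing cells thus stood beside a granulocyte gene. The members correlated with each other at 0.755 to 0.994 in their 28 pairs, with a median of 0.899. RatNP-3b reached 0.994 with both Np4 and Defa5, and the lowest value was that of Mmp8 and S100a9. These values describe arrays that share tissue and age and carry no test.

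Within a tissue, each age had 1 array, so the age phases have no replicate check and no test. A member was called higher or lower at a 2-fold ratio with a signal of 100 or more on both arrays. In bone, 5 of 8 members were higher at 10 months than at 4 months, where 3.85% of the 10626 probe sets with such signals were higher. Mmp8 was 4.59-fold higher, Pglyrp1 4.55-fold, Lta4h 2.81-fold, Np4 2.17-fold and RatNP-3b 2.12-fold. The 3 others were not called, with ratios of 1.97 for Defa5, 1.64 for S100a8 and 1.57 for S100a9. The median log2 ratio was 1.10 for the members and 0 for all these probe sets. Mmp8 and Pglyrp1 gave the largest ratios, at ranks 10 and 12 of all rises in bone. They also had the lowest signals of the members at 4 months, 747 and 1046. S100a9, with the smallest ratio, had the highest, 15462. The part of the signal level in these ratios was not tested. At a 1.5-fold limit all 8 members were called higher, where 1282 of the 10626 probe sets were. At 3-fold only Mmp8 and Pglyrp1 were, where 86 of the probe sets were.

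Beyond 10 months, no member was called in bone in either direction. At 18 months against 10 months the ratios lay between 0.772 for Mmp8 and 1.17 for S100a8, while 7.83% of the probe sets were higher, and at 24 months against 18 months they lay between 1.24 for Np4 and 1.39 for Mmp8, while 1.86% were higher. The 18-month bone array stood apart, with a median signal of 309, against 244 to 256 on the other bone arrays. Centring arrays on their medians therefore moved the median of all probe sets to -0.28 and 0.25 on the log2 scale in these phases, and turned all 8 members to between -0.71 and -0.11 at 18 over 10 months and to between 0.62 and 0.78 at 24 over 18 months, where quantile normalization gave -0.04 to 0.25. The split of calls over all probe sets moved with it. At 18 over 10 months 835 were higher and 202 lower, against 446 and 381 after quantile normalization and 309 and 531 after centring. At 24 over 18 months 201 were higher and 679 lower, against 351 and 366, and 451 and 239.

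Because of this array, the outer ages were also compared, a choice made after the values were seen. At 24 months against 4 months all 8 members were higher in bone, where 4.77% of the probe sets were higher. The ratios were 6.47 for Pglyrp1 (rank 2 of all rises), 4.90 for Mmp8, 3.13 for RatNP-3b, 3.08 for Np4, 3.05 for Lta4h, 2.84 for Defa5, 2.57 for S100a8 and 2.31 for S100a9, with a median log2 ratio of 1.62. At 24 months against 10 months 0 of 8 were called, where 0.638% of the probe sets were higher. The ratios there still lay above 1, between 1.07 for Mmp8 and 1.56 for S100a8. Their median log2 ratio was 0.52, against 0.01 for all probe sets. The 4-month bone array held the lowest signal of every member, and the 2-fold calls of the members in bone rest on this array.

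**Figure D3:**
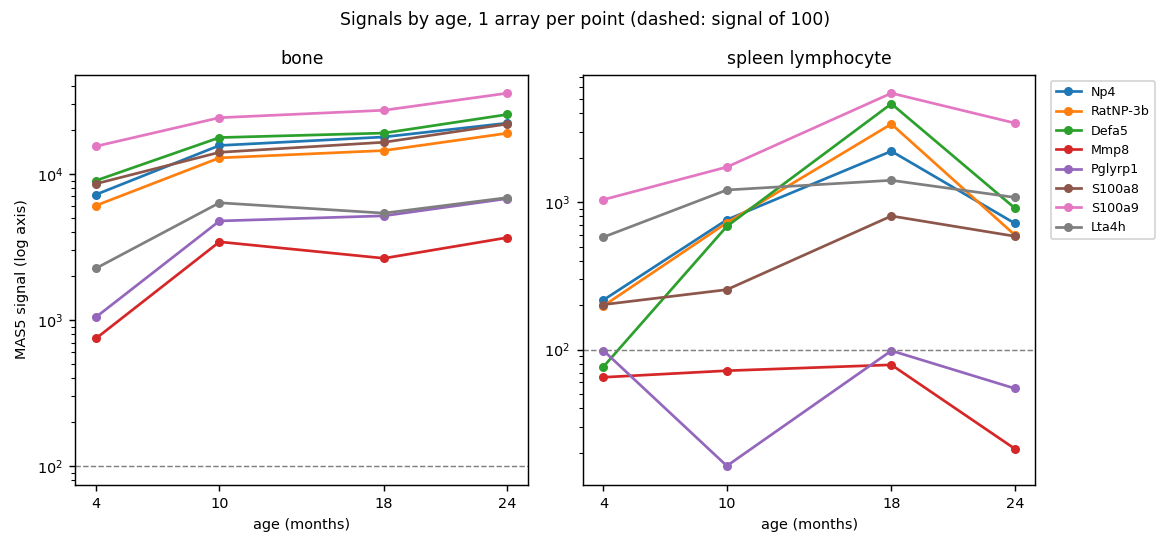
MAS5 signal (log axis) of the 8 genes by age in months in bone (left) and spleen lymphocyte (right), with 1 array per point and a dashed line at a signal of 100. In bone every gene is lowest at 4 months, whereas in spleen lymphocyte the defensins, S100a8 and S100a9 are highest at 18 months and Mmp8 and Pglyrp1 stay under 100.

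Other cell types moved on the same bone arrays. At 10 months against 4 months, 4 of 4 platelet and megakaryocyte genes were higher, with a median log2 ratio of 1.87. So were 4 of 6 erythroid genes (1.13), where 3.85% of all probe sets were higher. Pf4, a platelet chemokine, had signals of 4469, 10219, 11529 and 14398, and Prg2, the major basic protein of eosinophil granules, had 6204, 16703, 15580 and 21073. Of 5 skeletal muscle genes 4 were higher. On the other side, 3 of 9 osteoblast genes and 4 of 8 mast cell genes were lower, where 5.63% of all probe sets were lower, and at 24 months against 4 months 8 of 9 osteoblast genes were lower, where 6.42% were. Bglap, the bone matrix protein osteocalcin, had 21439, 11407, 10211 and 7074. The summed signal of the 9 osteoblast genes was 64026 at 10 months and 112759 at 4 months, with none under 100 on all bone arrays. That of the 12 T cell genes was 2712 and 3256, with 0 called.

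The other neutrophil lists gave mixed counts in the same phase. Of 6 further granule genes, 3 were higher (Lcn2, Fcnb and Hp) and 1 lower, Mmp9, which encodes gelatinase B of gelatinase granules and also of osteoclasts and had signals of 6877, 2791, 2026 and 2737. Of 7 receptor and adhesion genes 4 were higher, of 4 oxidase genes 2, of 5 leukotriene genes 2 (Alox5 and Alox5ap) and of 6 regulators 1, Cebpe. The share of all probe sets that were higher was 3.85%. The Actb ratio of 3′ over 5′ signal, which rises as RNA degrades, was 1.56, 0.48, 1.12 and 1.31 on the log2 scale in bone at the 4 ages. The part of these cell types and of RNA quality in the ratios of the members was not tested.

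In spleen lymphocyte, the members were higher at 10 months than at 4 months in 3 of the 5 cases with both signals measured, where 2.08% of the probe sets were higher. RatNP-3b was 3.66-fold higher, Np4 3.49-fold and Lta4h 2.08-fold, while S100a9 (1.66) and S100a8 (1.27) were not called. Defa5 had 685 at 10 months and 76.6 at 4 months and could not be called, since the lower signal was under the minimum. The median log2 ratio of the 5 was 1.06, against 0.01 for all probe sets.

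At 18 months against 10 months, 5 of 6 members were higher, where 1.32% of the probe sets were higher. Defa5 was 6.77-fold higher, RatNP-3b 4.67-fold, S100a9 3.17-fold, S100a8 3.15-fold and Np4 2.92-fold, and Lta4h had a ratio of 1.16. The median log2 ratio of the 6 was 1.66, against -0.03. The split over all probe sets was 135 higher and 144 lower, against 162 and 110 after quantile normalization and 206 and 119 after centring, and the members called were 5 in each case.

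At 24 months against 18 months the 3 defensins were lower, where 1.15% of the probe sets were lower and 1.33% higher. RatNP-3b had a ratio of 0.177, Defa5 of 0.196 and Np4 of 0.324, and the ratios of Lta4h (0.766), S100a8 (0.729) and S100a9 (0.627) did not reach the limit. No member was higher. The 18-month array thus held the highest signal of the 3 defensins, S100a8, S100a9 and Lta4h. Without it, at 24 months against 10 months, 1 of 6 members was higher, S100a8 at 2.30-fold, where 1.6% of the probe sets were higher, and S100a9 had a ratio of 1.99. So 4 of the 5 calls at 18 months rest on this array.

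At 24 months against 4 months, 4 of 5 members were higher in spleen lymphocyte, where 2.25% of the probe sets were higher. Np4 and S100a9 were both 3.30-fold higher, RatNP-3b 3.03-fold and S100a8 2.91-fold, and Lta4h had a ratio of 1.86. The 4-month array was the lowest of the 4 ages for all 6 members measured in this tissue. It also had the highest 3′ over 5′ ratios of this tissue, at 3.74 for Actb and 2.4 for Gapdh on the log2 scale. At 24 months these were 1.88 and 1.16. The part of RNA quality in the ratios of the members was not tested here either.

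Of the 4 further granule genes measured at both ages, 0 were called at 18 over 10 months, and their median log2 ratio was 0.15. Mmp8 and Pglyrp1 stayed under 100, and Lcn2 had 133 at 18 months and 34.2 at 10 months. Genes of the natural killer cell list were higher in 4 of 8 cases, where 1.32% of the probe sets were higher. The summed signal of the list was 30248 at 18 months and 13212 at 10 months. Called were Gzmb, Gzmk, Nkg7 and Klrb1a. Klrd1 and Prf1 (log2 ratio 0.88 for each), Ncr1 (0.20) and Ncr3 (-0.39) were not. Gzmb, a granule protease of killer cells, had signals of 1625, 2342, 8394 and 6366 at the 4 ages. Unlike the defensins, these genes were not called lower at 24 months (0 of 8). Of 2 eosinophil genes, 1 was higher, Prg2, with 119, 165, 387 and 178 at the 4 ages, and the other, Ccr3, had 164 at 18 months and 225 at 10 months. Summed signals of T cell genes were 36405 at 18 months and 30930 at 10 months, and those of monocyte and macrophage genes 9126 and 8230. Of 12 T cell genes 1 was called higher, Cd8a, with 879 at 18 months and 348 at 10 months, and of 9 monocyte and macrophage genes 1. The Actb ratio of 3′ over 5′ signal was 3.74, 2.63, 2.33 and 1.88 on the log2 scale at the 4 ages. The part of these in the values of the members was not tested.

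**Figure D4:**
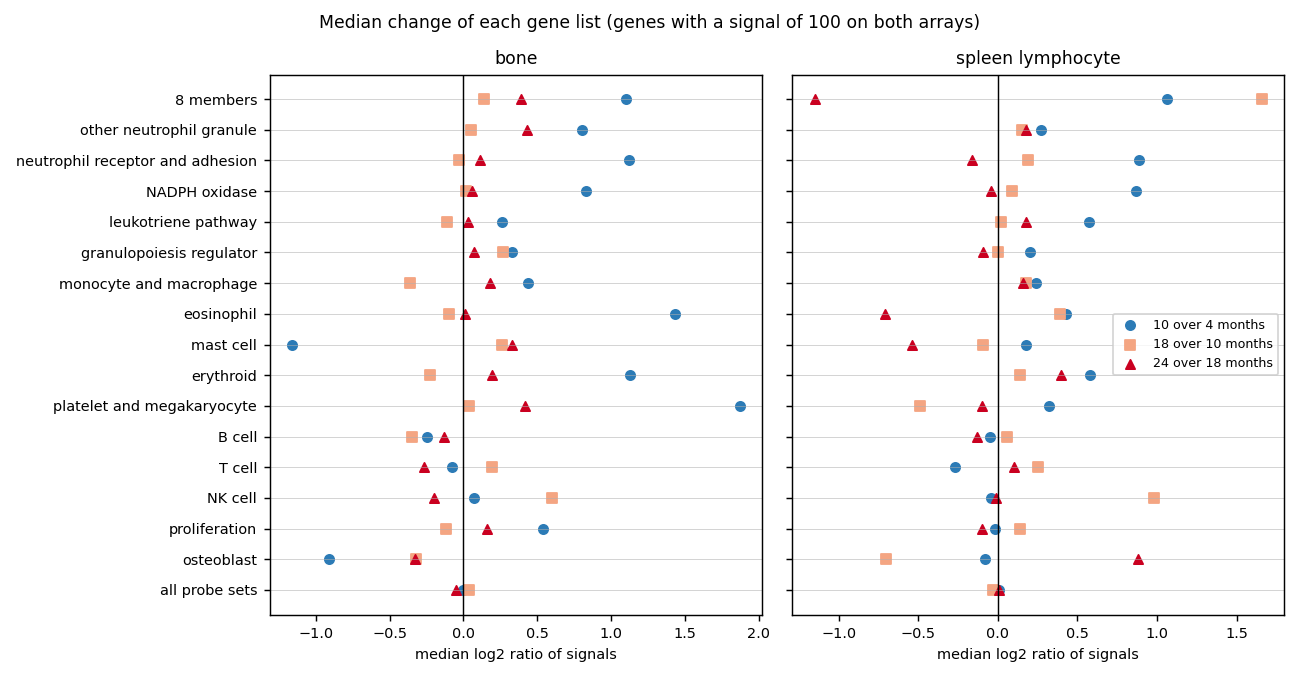
Median log2 ratio of signals for the members, for lists of neutrophil and other cell genes, and for all probe sets, in bone (left) and spleen lymphocyte (right), over genes with a signal of 100 on both arrays of a phase; circles are 10 over 4 months, squares 18 over 10 months and triangles 24 over 18 months. In bone the members (1.10) stand among several blood cell lists at 10 over 4 months, and in spleen lymphocyte their medians of 1.66 and -1.15 lie outside those of the other neutrophil lists.

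The spleen lymphocyte signal was also expressed as a percent of the bone signal of the same probe set and age. For Defa5 it was 0.851%, 3.86%, 24.4% and 3.57% at 4, 10, 18 and 24 months, the first from a spleen lymphocyte signal under 100. For RatNP-3b it was 3.26%, 5.63%, 23.4% and 3.15%, and for Np4 3.01%, 4.85%, 12.4% and 3.22%. For S100a9 it was 6.72%, 7.12%, 20.1% and 9.61%, and for S100a8 2.36%, 1.82%, 4.89% and 2.67%. All 5 were highest at 18 months, but by unequal amounts: S100a8 peaked at 4.89%, beside 20.1% for its partner S100a9. Lta4h lay between 15.6% and 26.1% at all ages. Lcn2 lay between 0.336% and 1.33%, and Fcnb between 5.44% and 14%, with its highest value at 4 months.

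**Figure D5:**
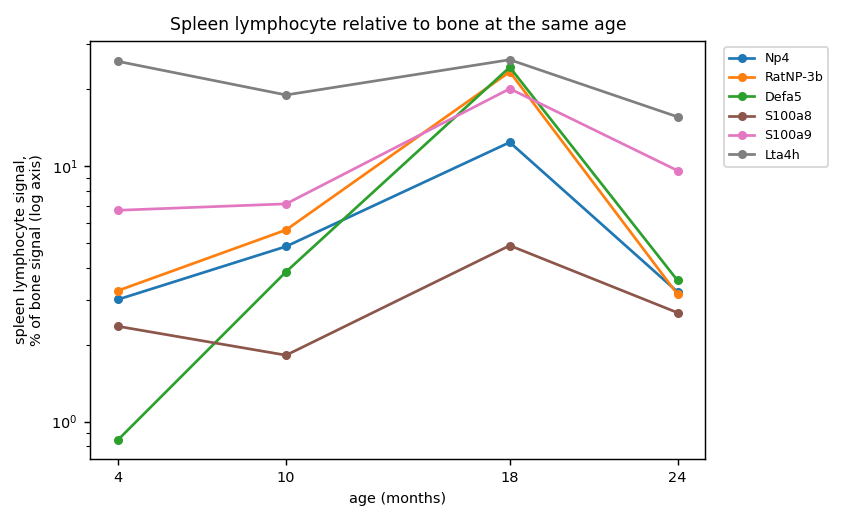
Spleen lymphocyte signal as a percent of the bone signal (log axis) against age in months, for the 6 genes measured in spleen lymphocyte, with 1 array of each tissue per point. Defa5, RatNP-3b and S100a9 reach 24.4%, 23.4% and 20.1% at 18 months, and Lta4h stays between 15.6% and 26.1%.

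Age effects common to bone and spleen lymphocyte were tested with limma over the 8 arrays of both tissues, which leaves 3 residual degrees of freedom. In none of the 3 phases was a member called, and 0% of the 15866 probe sets were called. At an unadjusted p under 0.05, 676, 640 and 625 probe sets passed at 10 over 4, 18 over 10 and 24 over 18 months, among them 2, 1 and 0 members. Those at 10 over 4 months were Lta4h, with a difference of 1.23 (SE 0.30), and Np4, with 1.35 (SE 0.46), and that at 18 over 10 months was S100a8, with 0.86 (SE 0.34). The limma adjusted p was 1 for each. Defa5 had the largest estimate at 10 over 4 months, 1.76 (SE 0.80, limma adjusted p = 1). With this design, no change common to both tissues was detected for the members. In a fit over all 6 tissues (15 residual degrees of freedom), 3, 0 and 0 members passed an unadjusted p under 0.05 in these phases. There 759, 528 and 528 of the 15866 probe sets passed it, and 0 members were called.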

How the data were processed

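The deposited intensities of 24 Affymetrix RAE230A arrays were used. The authors scanned them, summarised each probe set with MAS5 into 1 linear signal and scaled each array to a common target of 500. Detection calls and change p-values were not used. The medians of the arrays lay between 213 and 309, and precision is limited by having 1 array for each tissue and age.

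Groups came from the tissue and age of each sample. Of 15923 probe sets, 57 controls were left out of the tests. Probe sets were named through the array annotation: 12789 had 1 symbol, 312 several and, controls left out, 2771 none (6 controls carry a symbol and are among those with 1 or several), and 12754 carried an identifier found in the RefSeq gene table. Tissue contrasts were fitted with limma 3.58.1 in R 4.3.3 on log2(signal + 50) with no filter on low signals. Age phases were ratios of 2 arrays, called at 2-fold with signals of at least 100. For a gene of a list with several probe sets, 1 was kept. Correlations used log2(signal + 50). Upstream sequences came from RefSeq (GRCr8), and motifs were searched on both strands. The fits were tested on simulated data. Python 3.11.15 with numpy 2.4.6, pandas 2.3.3 and matplotlib 3.10.9 was used.

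The members and the 21 gene lists were chosen with earlier results of these data known. Named were all members, up to 4 genes per list with the highest mean signal in bone and spleen lymphocyte, the genes of the largest changes in a list, and the 10 genes closest in pattern. Pf4, Prg2, Bglap, Cebpe, Alox5, Alox5ap, Hp and the natural killer cell genes are named as list members, in part after their values were seen. Alternatives were other pseudocounts, fold limits, signal minimums and scalings, and leaving out each tissue or age.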

Additional observations from a re-analysis of the deposited data

Results flagged for a closer look

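Within a tissue, 5 of 48 sets of 4 ages had 1 array far from the others, judged by the gap to its neighbour as a share of the range, where chance gives about 1 in 20. All 5 lay in tissues where the member is low. RatNP-3b was lowest in kidney at 18 months, with a signal of 3.56 and a gap of 0.868 of the range. Mmp8 was lowest in pituitary at 10 months (signal 38.2, gap 0.891). Pglyrp1 was highest in kidney at 24 months (signal 119, gap 0.874). S100a8 was highest in liver at 4 months (signal 37.8, gap 0.968) and in kidney at 24 months (signal 24.4, gap 0.84). Apart from the Pglyrp1 array, these signals lie under 100, where signals have no order, so nothing is read from them.

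Bone and spleen lymphocyte moved in opposite directions in 7 cases. The members with both signals measured in both tissues were 5, 6 and 6 in the 3 phases. The share of all probe sets with opposite directions was not counted. The difference was not tested, with 1 array per tissue and age. At 24 over 18 months the log2 ratio was positive in bone and negative in spleen lymphocyte for 6 members. It was 0.32 in bone and -1.62 in spleen lymphocyte for Np4 (bone minus spleen lymphocyte 1.94), 0.40 and -2.50 for RatNP-3b (2.89), and 0.42 and -2.35 for Defa5 (2.77). The gap was smaller for S100a9 (0.39 and -0.67, a difference of 1.06), S100a8 (0.42 and -0.46, 0.87) and Lta4h (0.35 and -0.39, 0.74). At 18 over 10 months Lta4h had -0.24 in bone and 0.22 in spleen lymphocyte, a difference of -0.45. After quantile normalization the bone ratios of 24 over 18 months were -0.04 to 0.25, so their sign depends on the scaling.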

How the results depend on the processing

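Age pairs the tissues, since 1 set of rats gave all tissues at each age, and it is a factor in the tissue fits. Without it, 8, 5 and 8 members were called higher in bone over the 4 other tissues, spleen lymphocyte over these and bone over spleen lymphocyte. Of the 15866 probe sets, 3891, 4120 and 3135 were called higher, in the same order. For the age phases within a tissue, no paired analysis was possible because each age has 1 array of other rats. The members called in the tissue contrasts were 8 of 8 in both bone contrasts under every alternative run, and 5 to 6 of 8 in spleen lymphocyte over the 4 other tissues. The exception was Lta4h, whose difference there was 0.34 to 0.54 and missed the threshold under 9 alternatives: without hypothalamus, without pituitary, without the 10-month, 18-month or 24-month arrays, with a pseudocount of 16, after quantile normalization, with signals floored at 100 and without the age factor (adjusted p from 0.05 to 0.194). No called tissue difference of a member changed sign, while that of Pglyrp1 in spleen lymphocyte over the 4 other tissues, which was not called, was 0.15 and became -0.05 with signals floored at 100 and without the 18-month arrays. The members higher in bone at 10 over 4 months were 8 at 1.5-fold and 2 at 3-fold, and 5 of 8 in the main setting. At 24 over 4 months, chosen after seeing the data, they were 5 at 3-fold and 8 in the main setting. Members higher in spleen lymphocyte at 18 over 10 months were 1 without the 18-month array, compared as 24 over 10 months (chosen after seeing the data), and 5 with it. The cause was not tested. Of the counts of members, 176 stayed within 1.5 times the main count and 4 did not, while 83 counts over all probe sets did not and 95 did. Bone at 18 over 10 months had 835 probe sets higher, against 446 after quantile normalization, 309 after centring, 490 for signals + 50, 203 at a minimum of 200, 2055 with the minimum on the higher array only, 2009 at 1.5-fold and 117 at 3-fold; bone at 24 over 18 months had 201, against 351, 451, 118, 66, 660, 769 and 29 in the same order. Bone at 10 over 4 months had 409, against 734 with the minimum on the higher array only, 1282 at 1.5-fold and 86 at 3-fold. Signals under 100 have no order, which limits Mmp8 and Pglyrp1 in spleen lymphocyte and Defa5 there at 4 months.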
